A study of Mus musculus with 8 samples.

Results

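Phospholipid flippases are P4-type ATPases that use ATP to move lipids such as phosphatidylserine from the outer to the cytosolic side of a membrane. Most of them need a chaperone subunit of the CDC50 family, of which Tmem30a is the widely used member, to leave the endoplasmic reticulum and to work. By keeping phosphatidylserine inside, they keep off the cell surface a lipid that phagocytes read as a signal to engulf the cell. In blood-forming cells, as elsewhere, scramblases act against them by letting lipids cross in both directions.

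The genes described here are the P4-ATPase genes Atp8b4, Atp8a1, Atp8b2, Atp11a and Atp11b and the chaperone gene Tmem30a, 6 of the 18193 genes with a probe set of 1 gene symbol, and 20 of 34945 such probe sets. Atp8b4 was selected on its difference between HSC of leukemic and of normal mice, where an adjusted p under 0.05 had called it. The other 5 genes were added by family, by someone who had earlier results of these data. The HSC comparison is therefore given as a description without a test for all 6 genes, as are the HSC against KSL differences of Atp8b4.

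Messenger RNA was measured on 8 mouse expression arrays in 4 groups of 2, all from CD45.1+ cells that do not carry the BCR-ABL transgene. Leukemic mice were CD45.1+ hosts that had received CD45.2+ marrow transgenic for BCR-ABL (the kinase made by the fusion that drives chronic myeloid leukaemia) and SCL-tTA (a tetracycline-regulated driver active in stem and progenitor cells) together with an equal number of CD45.1+ marrow cells. Normal mice were chimeras made without the BCR-ABL transgene. The series text gives the sort of HSC as 4 weeks after tetracycline water was withdrawn. HSC are the CD150+ CD48- part of the KSL gate (lineage negative, Kit+, Sca-1+) and KSL the whole gate, so HSC are also among the KSL cells. Graft and host are both CD45.1+, so the sorted cells can come from either. The labels give neither an age nor whether the 2 arrays of a group stand for different animals. If they do not, the p-values cover only the spread between these arrays, which may be technical. The groups are called normal HSC, leukemic HSC, normal KSL and leukemic KSL below, by the mouse that the cells came from. The titles of both leukemic KSL samples name a normal as well as a leukemic mouse, and these samples were assigned by their disease state label, which says leukemic. Every comparison with leukemic KSL rests on that label.

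The HSC arrays were noisier than the KSL arrays, with a median standard deviation between replicates of 0.20 and 0.21 log2 units in HSC of normal and leukemic mice against 0.11 and 0.09 in KSL. Of the genes that define the gates, Slamf1 (CD150) lay between 8.23 and 9.36 on the HSC arrays and between 5.27 and 7.06 on the KSL arrays, and Cd48 lay between 6.19 and 8.12 against 10.17 and 10.44. Stem cell genes were not level between the HSC groups: both leukemic HSC arrays lay below both normal ones for 4 of 9 gate genes, with differences of -1.71 for Fgd5, -1.25 for Procr, -0.78 for Slamf1 and -0.72 for Hlf, of which 0 passed (limma; 2 of the 9 at an unadjusted p under 0.05). Of all genes 32.7% had HSC arrays apart in either direction. These are values of 1 probe set per gene. The other Slamf1 probe sets read 0.19 and -0.38 with arrays overlapping, and the other Hlf probe set -1.06 with arrays apart. Ptprc (CD45) lay between 9.72 and 10.49 on all 8 arrays. Replicate 1 of both normal groups had low Xist, at 5.79 and 3.67 against 11.63 to 11.99 on the other 6 arrays. These arrays are called arrays of male pattern below, by this 1 transcript only.

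The promoters of Atp8b4, of Atp8a1, which differed from it in direction between HSC and KSL, and of the chaperone gene Tmem30a are shown, since the results turn on these 3 genes. They are RefSeq windows of build GRCm38.p6, from 250 bases before to 50 after an annotated start, printed 5′ to 3′ on the strand of the gene. The window of Atp8b4 lies at chr2:126491504-126491803, that of Atp8a1 at chr5:67847382-67847681 and that of Tmem30a at chr9:79793381-79793680, all on the minus strand. Capitals mark matches to the motifs searched.
Atp8b4: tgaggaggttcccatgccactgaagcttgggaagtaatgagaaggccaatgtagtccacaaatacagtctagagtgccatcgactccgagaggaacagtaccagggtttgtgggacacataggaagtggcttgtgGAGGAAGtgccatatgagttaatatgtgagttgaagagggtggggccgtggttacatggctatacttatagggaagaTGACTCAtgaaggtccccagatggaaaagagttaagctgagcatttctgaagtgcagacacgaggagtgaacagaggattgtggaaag
Atp8a1: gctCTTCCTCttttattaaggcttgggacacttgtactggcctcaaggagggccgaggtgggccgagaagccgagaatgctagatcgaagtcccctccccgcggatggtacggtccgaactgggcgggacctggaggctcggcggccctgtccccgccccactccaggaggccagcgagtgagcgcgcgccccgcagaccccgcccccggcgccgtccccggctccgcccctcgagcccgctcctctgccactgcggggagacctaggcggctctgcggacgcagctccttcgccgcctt
Tmem30a: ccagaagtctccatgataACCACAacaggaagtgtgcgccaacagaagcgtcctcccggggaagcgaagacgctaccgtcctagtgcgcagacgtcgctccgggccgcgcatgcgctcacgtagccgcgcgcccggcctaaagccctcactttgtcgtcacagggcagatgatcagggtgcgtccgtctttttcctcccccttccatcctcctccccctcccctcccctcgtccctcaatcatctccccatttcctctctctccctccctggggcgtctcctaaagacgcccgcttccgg

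The Atp8b4 window was the poorest in CpG dinucleotides of the 7 member windows (Atp8b2 has 2). It held 4 CpG at a GC content of 48%, below the medians of 7 CpG and 52.7% over all 32851 windows. The windows of the other members held between 23 and 39 CpG at 63% to 76% GC, with 39 in that of Atp11a, 33 in that of Atp11b, 31 in that of Atp8a1 and 26 in that of Tmem30a. The annotated span of Atp8b4 on chromosome 2 runs from 126320973 to 126500669 and so goes on upstream of this window, which belongs to the only start the table lists for it. On both strands, TGTGGT was searched as the letters of RUNX factors, GAGGAAG as those of PU.1 and TTGCNNAA as those of C/EBP factors. For GATA factors the letters were AGATAA, for STAT factors TTCNNNGAA, for AP-1 TGANTCA and for the TATA box TATAAA, and no match in these windows overlapped another. The Atp8b4 window held GAGGAAG at position -115 relative to the start, a string found in 13.6% of all windows, and TGANTCA at -38, found in 7.81%. The Atp8a1 window held 1 GAGGAAG on the opposite strand, the Tmem30a window 1 TGTGGT on the opposite strand (16.8% of windows), and those of Atp8b2, Atp11a and Atp11b none. The other 4 motifs are in 8.3% (STAT), 10.8% (C/EBP), 11.2% (GATA) and 13.6% (TATA box) of windows. A match describes the letters only.

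Atp8b4 encodes a P4-ATPase whose substrate is less well known than that of Atp8a1. It was far lower in HSC than in KSL by both of its probe sets, and normal HSC had the lowest values. On the log2 scale, probe set 1445522_at read 4.53 and 4.27 in normal HSC, 5.98 and 5.94 in leukemic HSC, 10.23 and 10.19 in normal KSL and 10.64 and 10.61 in leukemic KSL. Probe set 1439814_at read 3.32 on both arrays of normal HSC, which is the floor of the deposited table (10 on the linear scale), 5.17 and 5.03 in leukemic HSC, 10.34 and 10.56 in normal KSL and 10.46 and 10.37 in leukemic KSL. In both probe sets all 4 KSL arrays lay above all 4 HSC arrays, and both HSC arrays of leukemic mice lay above both of normal mice.

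**Figure D1:**
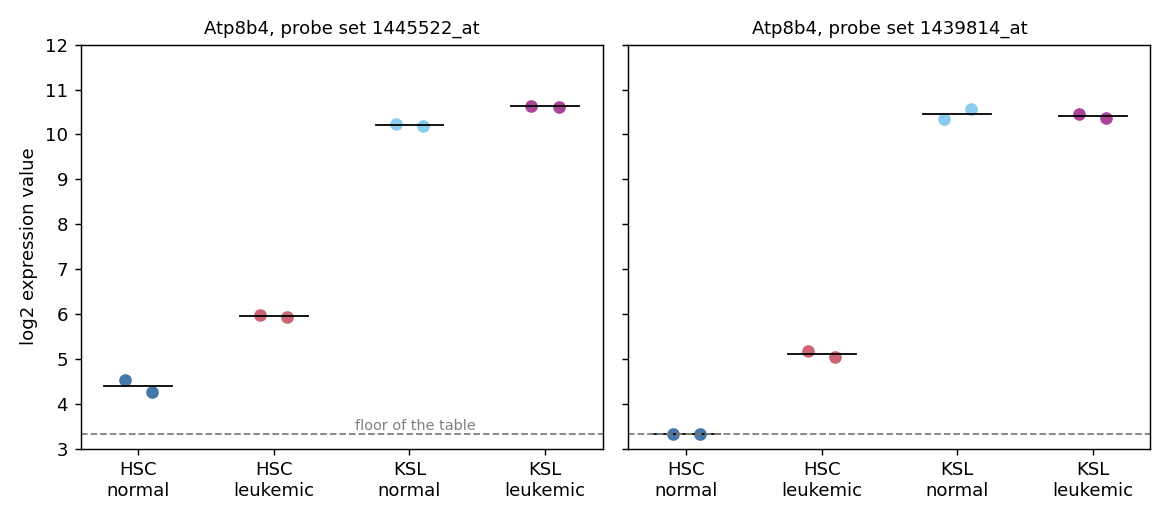
Log2 expression value (vertical axis) of both Atp8b4 probe sets on the 8 arrays; points are arrays, short bars are means of the 2 arrays of a group and the dashed line is the floor of the table. The means run from 4.40 in normal HSC to 10.63 in leukemic KSL for 1445522_at, and for 1439814_at both HSC arrays of normal mice sit on the floor.

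Atp8b4 was 2.95-fold higher in HSC of leukemic than of normal mice by 1445522_at, a log2 difference of 1.56 ± 0.09 (standard error of the fit, n = 2 arrays per group). It was at least 3.43-fold higher by 1439814_at, a bound because the normal arrays were at the floor. This is the contrast by which Atp8b4 was chosen, so its size supports nothing further. There 0.0989% of all genes were called. In normal mice HSC had 56.2-fold less Atp8b4 signal than KSL by 1445522_at and at least 140-fold less by 1439814_at. In leukemic mice the same gaps were 25.4-fold and 39.8-fold. The level in leukemic HSC was thus 3.94% of that in leukemic KSL by 1445522_at and 2.51% by 1439814_at, against 1.78% and at most 0.715% in normal mice. Fewer cells with the transcript and less transcript per cell cannot be told apart in sorted bulk RNA. Of 11 granulocyte-monocyte progenitor markers, 7 passed as lower in HSC than in KSL within normal mice (limma), against 1.8% of all genes called in either direction. Within leukemic mice 6 did, against 5.86%. Mast cell and basophil markers passed as lower for 1 of 9 in normal and 3 of 9 in leukemic mice (1 as higher), T and NK markers for 2 of 7 in both. In leukemic mice 4 of 9 megakaryocyte markers passed as higher in HSC. The part of such cells in the Atp8b4 gap was not tested.

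The KSL arrays took no direct part in the choice of Atp8b4, but the standard error and p of their comparison pool the spread of all 8 arrays, HSC included, so the test is not fully independent of that choice. By 1445522_at it was 0.42 ± 0.09 log2 units (1.33-fold), with both leukemic arrays above both normal arrays, and did not pass (limma, adjusted p = 0.355; unadjusted p = 0.00699). With the 4 KSL arrays fitted alone it did not pass either (adjusted p = 0.151). By 1439814_at it was -0.04 ± 0.09 and the arrays overlapped (adjusted p = 1 over all probe sets). The probe sets thus gave different differences in KSL. The leukemic minus normal difference was larger in HSC than in KSL by 1.15 log2 units in the first probe set and at least 1.81 in the second, where normal HSC was at the floor, which was not tested because the HSC side chose the gene. Beside this, 8 of 11 granulocyte-monocyte progenitor markers had their leukemic KSL arrays above the normal ones (median 0.42), as had 7 of 9 mast cell and basophil markers (1.15) and 5 of 12 neutrophil and monocyte markers (0.71). Other lists lay the opposite way, with the leukemic arrays below for 6 of 9 gate genes (median -0.68), 6 of 9 megakaryocyte markers (-0.68) and 5 of 7 T and NK markers (-0.62). Of all genes 44.5% had KSL arrays apart in either direction. From these lists 0 genes passed (limma), and 4, 5, 2, 2, 2 and 1 had an unadjusted p under 0.05, in the order given. Their part in the Atp8b4 values was not tested.

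Markers of other cells and stages are given beside this difference, and none of those in the next sentences passed (limma). Of 11 measured markers of granulocyte-monocyte progenitors, 10 had both HSC arrays of leukemic mice above both of normal mice, against 16% of all genes, and 9 had an unadjusted p under 0.05 while 0 passed. Their median difference was 2.07 log2 units beside 0.00 over all genes. Their summed linear level was 2221 to 2718 in normal HSC, 5634 to 8057 in leukemic HSC, 36021 to 40282 in normal KSL and 47127 to 50351 in leukemic KSL, and none was at the floor on both arrays of any group. Relative to leukemic KSL, leukemic HSC had between 3.51% (Ms4a3, a membrane protein of granulocyte-monocyte precursors) and 32.6% (Csf2rb, the GM-CSF receptor beta chain) of these markers. In normal mice the share lay between 1.11% (Ctsg, cathepsin G) and 22.7% (Csf2rb).

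Mature neutrophil and monocyte markers had a median of 2.35, with 7 of 12 measured apart in that direction, and a summed level of 939 and 10709 on the HSC arrays of normal mice against 14096 and 20238 on those of leukemic mice. For 8 of 9 mast cell and basophil markers the mean was higher in leukemic HSC (median 0.67, 4 of 9 apart), and the summed level was 2514 to 3613 against 3589 to 3999. Megakaryocyte markers had a median of 0.51 (3 of 9 apart upward; summed level 5398 to 10568 against 11256 to 11843), B lineage markers 0.54 (5 of 9; 471 to 972 against 853 to 1122) and T and NK markers 0.34 (3 of 7; 676 to 935 against 1028 to 1095). Macrophage markers had a median of -0.03 with 0 of 10 apart upward. Their defining gene Adgre1 was at the floor on both HSC arrays of leukemic mice and read 3.32, the floor, and 3.51 on those of normal mice. Erythroid markers had -0.78 (0 of 7), and endothelial and stromal markers -0.09 (1 of 10). Probe sets that gauge RNA quality also read differently. The 3 prime minus 5 prime difference of the Gapdh control probe sets was 0.78 and 0.83 in normal against 1.19 and 1.03 in leukemic mice, that of Tfrc was -2.04 and -1.74 against -0.36 and -0.75, and that of Actb was -0.37 and -0.38 against -0.42 and -0.50. The part of other cells, of RNA quality, of the lower stem cell genes and of sex in the Atp8b4 difference was not tested. Both arrays of male pattern are of normal mice. Leaving them out leaves 1 array in each normal group, and the Atp8b4 difference was then 1.69 in HSC and 0.44 in KSL.

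Across the 8 arrays, the values of 5 genes were most like those of Atp8b4 by Pearson correlation, out of 4159 compared that were off the floor on every array and varied by a standard deviation of at least 0.5. They were BC035044 (r = 0.9977), Ms4a3 (0.9965), 0610040J01Rik (0.9926), Ccl9, a myeloid chemokine gene (0.9920), and Clec10a, a lectin receptor gene (0.9900). Pairs of these 8 arrays share a group, so the points are not independent. BC035044 averaged 4.97 in normal HSC, 6.22 in leukemic HSC, 10.66 in normal KSL and 10.70 in leukemic KSL. Ms4a3 averaged 6.41, 7.65, 11.74 and 12.48 in the same order. In each of the 5 genes both HSC arrays of leukemic mice lay above both of normal mice and below all 4 KSL arrays. That order largely follows from the way they were picked, for likeness to a gene chosen on the HSC arrays. It adds no support to the Atp8b4 difference. Over all genes 16% had both leukemic HSC arrays above both normal ones. Among the members, r with Atp8b4 was 0.80 for Tmem30a, 0.40 for Atp11b, -0.17 for Atp11a, -0.31 for Atp8b2 and -0.88 for Atp8a1.

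**Figure D2:**
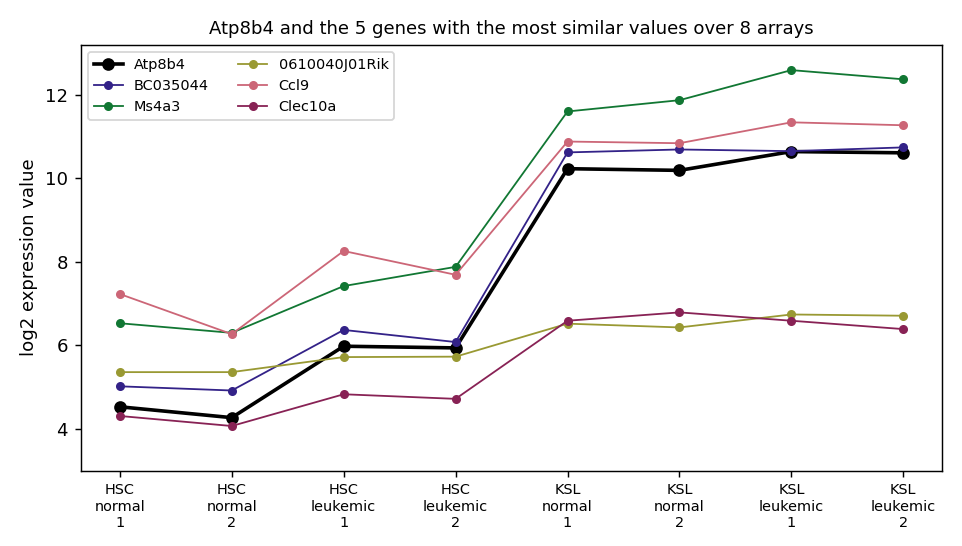
Log2 expression value (vertical axis) of Atp8b4 (thick black line) and the 5 genes most correlated with it on each of the 8 arrays (horizontal axis); lines join arrays of one gene to guide the eye. All 6 genes are lowest in normal HSC, higher in leukemic HSC and highest in KSL, with BC035044 nearest to Atp8b4 at r = 0.9977. The 5 genes were picked for this likeness.

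The other members stayed within a much narrower range, as the plot of all 20 probe sets shows. In the KSL comparison 0 of 6 members passed (limma, adjusted p under 0.05), with 1 of 6, Atp8b4, at an unadjusted p under 0.05. Over all genes 0.044% were called. The arrays of the 2 KSL groups did not overlap for 2 of 6 members, Atp8b4 and Atp11a, against 44.5% of all genes. The members' median difference was 0.04 log2 units beside 0.00 over all genes.

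**Figure D3:**
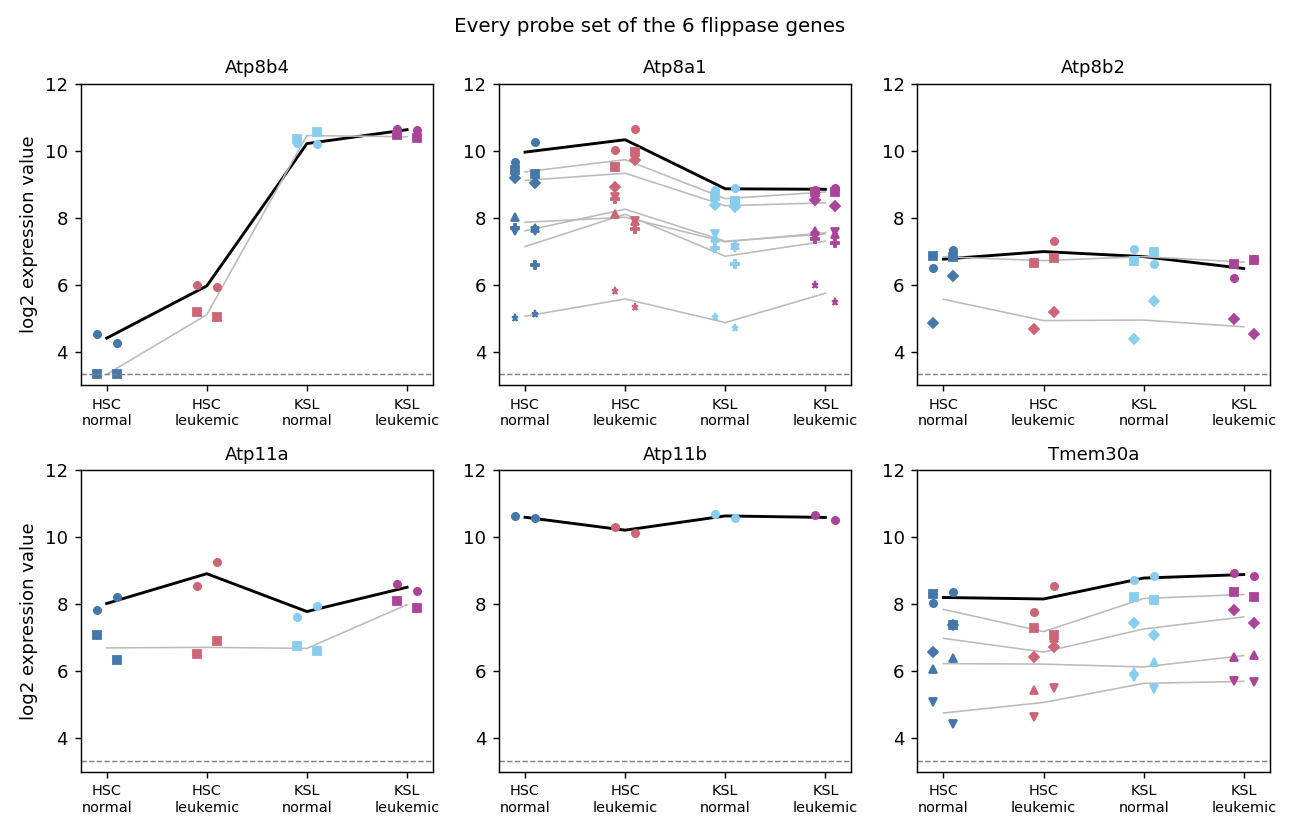
Log2 expression value (vertical axis) of every probe set of the 6 genes in the 4 groups; points are arrays, symbols tell probe sets apart, lines join group means (black for the probe set that stands for the gene, grey for the others) and the dashed line is the floor of the table. The Atp8b4 line has a difference of -5.81 log2 units for HSC minus KSL of normal mice, against 1.10 for Atp8a1 and -0.04 for Atp11b.

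Between normal HSC and normal KSL 0 of the 5 members other than Atp8b4 passed, while 1.8% of all genes were called; 1 of the 5, Atp8a1, had an unadjusted p under 0.05. In leukemic mice 0 of 5 passed, while 5.86% of all genes were called; Atp8a1 and Atp11b had an unadjusted p under 0.05. Atp8b4 had its arrays apart in these comparisons and in that of the 2 HSC groups, but was chosen on the HSC arrays and is left out of the following. Of the other 5 members, arrays did not overlap for Atp8a1 and Tmem30a in normal mice, against 43.5% of all genes. In leukemic mice they did not overlap for these and for Atp11b, against 51.4%. In the HSC comparison of leukemic with normal mice they did not overlap for Atp11a and Atp11b, against 32.7%. How many genes were called rests on single arrays and on the arrays in the fit: with 1 array left out it ran from 0 to 6 genes in KSL, against 8, from 20 to 463 between normal HSC and normal KSL, against 328, and from 0 to 1316 in leukemic mice, against 1067. The lowest counts came without 1 of the leukemic KSL arrays, and in KSL also without any 1 of the HSC arrays. These comparisons share arrays with one another and with the contrast that chose Atp8b4.

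**Figure D4:**
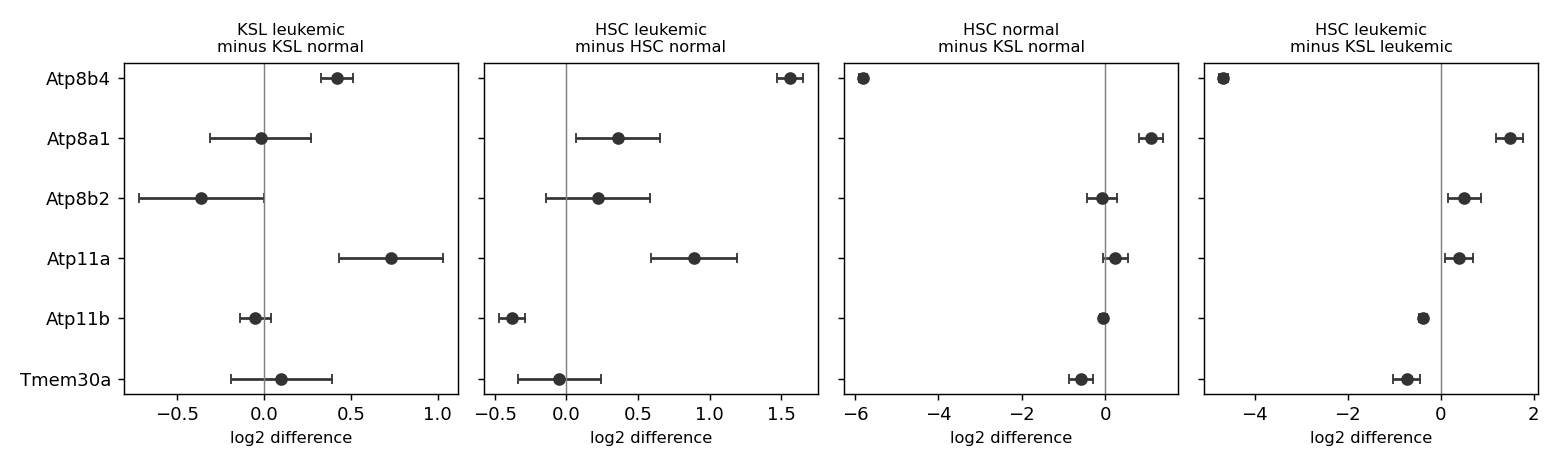
Log2 difference (horizontal axis, a separate scale per panel) of the 6 genes in 4 comparisons; points are fitted differences of the probe set that stands for the gene and bars are standard errors of the fit, n = 2 arrays per group. Atp8b4 lies apart from the other members in both HSC against KSL panels, at -5.81 and -4.67, and Atp8a1 lies on the other side of 0, at 1.10 and 1.48.

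Atp8a1, a phosphatidylserine flippase of inner membranes and the plasma membrane, was higher in HSC than in KSL, where Atp8b4 was lower. Its probe set 1423598_at read 9.66 and 10.25 in normal HSC, 10.01 and 10.64 in leukemic HSC, 8.83 and 8.89 in normal KSL and 8.81 and 8.88 in leukemic KSL. All 4 HSC arrays thus lay above all 4 KSL arrays. The HSC minus KSL difference was 1.10 ± 0.29 log2 units in normal mice (limma, adjusted p = 0.169) and 1.48 ± 0.29 in leukemic mice (adjusted p = 0.0616), and neither passed. With the mean of its 7 probe sets in place of this one the difference in leukemic mice was 0.74 and passed (adjusted p = 0.0264), and it also passed with arrays shifted to a common median (1.53, adjusted p = 0.0362) and when genes with any array at the floor were left out (adjusted p = 0.026).

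The 7 probe sets of Atp8a1 gave the same direction between HSC and KSL for 7 of 7 in normal mice, from 0.19 to 1.10, and for 6 of 7 in leukemic mice, from -0.17 to 1.48. The exception was 1444355_at, the dimmest, with a mean of 5.06 in normal HSC. In HSC of leukemic against normal mice all 7 were higher, by 0.15 to 0.97, with the arrays apart in 3 of 7. In KSL 6 of 7 were higher in leukemic mice, by 0.09 to 0.87, with the arrays apart in 4 of 7. The brightest read -0.02 ± 0.29 (adjusted p = 1).

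Tmem30a, the shared chaperone subunit, was lower in HSC than in KSL by most of its probe sets. Its brightest probe set 1448339_at read 8.04 and 8.37 in normal HSC, 7.76 and 8.56 in leukemic HSC, 8.72 and 8.85 in normal KSL and 8.94 and 8.84 in leukemic KSL. The HSC arrays lay below the KSL arrays in both kinds of mice, with differences of -0.58 ± 0.29 in normal (limma, adjusted p = 0.434) and -0.73 ± 0.29 in leukemic mice (adjusted p = 0.233), which did not pass. Of its 5 probe sets, 4 were lower in normal HSC (from -0.89 to -0.28, with 1443619_at at 0.10) and 5 of 5 in leukemic HSC (from -1.11 to -0.25). Between leukemic and normal KSL all 5 were slightly higher, by 0.06 to 0.36, and the brightest differed by 0.10 ± 0.29 (adjusted p = 1). In HSC the 2 leukemic arrays of 1448339_at enclosed both normal arrays, at a difference of -0.05. Of the 5 probe sets 4 were lower in leukemic than in normal HSC (from -0.66 to 0.31 over the 5), and 1416446_at had its arrays apart, at 7.30 and 7.07 against 8.32 and 7.38.

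Atp11a, a plasma membrane flippase for phosphatidylserine and phosphatidylethanolamine, had the largest difference of the 6 genes between leukemic and normal KSL. Its probe set 1421167_at read 7.63 and 7.94 in normal KSL and 8.62 and 8.40 in leukemic KSL, a difference of 0.73 ± 0.30 (limma, adjusted p = 0.674). The second probe set, 1456388_at, read 6.75 and 6.62 against 8.10 and 7.88, a difference of 1.30 ± 0.29 (adjusted p = 0.416 over all probe sets). Both probe sets had their leukemic KSL arrays above the normal ones and neither passed. In HSC they parted. 1421167_at read 7.82 and 8.23 in normal against 8.56 and 9.27 in leukemic mice (0.89), while 1456388_at read 7.07 and 6.33 against 6.51 and 6.92 (0.01). Their HSC minus KSL differences in leukemic mice had opposite signs, 0.40 ± 0.30 and -1.28 ± 0.29 (adjusted p = 0.531 and 0.0953 over all probe sets).

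Atp11b, a flippase of recycling endosomes and the Golgi, has 1 probe set. It read 10.63 and 10.57 in normal HSC, 10.30 and 10.13 in leukemic HSC, 10.69 and 10.59 in normal KSL and 10.67 and 10.52 in leukemic KSL. Both HSC arrays of leukemic mice lay below the other 6 arrays. The difference from leukemic KSL was -0.38 ± 0.09 (limma, adjusted p = 0.0894) and that from KSL in normal mice -0.04 ± 0.09 (adjusted p = 0.94), and leukemic KSL differed from normal KSL by -0.05 ± 0.09 (adjusted p = 1).

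Atp8b2, a plasma membrane flippase for phosphatidylcholine, showed no separation of groups in the probe set that stands for it. 1434026_at read 6.50 and 7.02 in normal HSC, 6.66 and 7.31 in leukemic HSC, 7.05 and 6.62 in normal KSL and 6.19 and 6.77 in leukemic KSL, and every pair of groups overlapped. The KSL difference was -0.36 ± 0.36 (limma, adjusted p = 1), and its 3 probe sets ran from -0.36 to -0.16. The HSC against KSL differences were -0.07 ± 0.36 in normal (adjusted p = 1) and 0.51 ± 0.36 in leukemic mice (adjusted p = 0.481).

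Ordered by level within each gene, only Atp8b4 among the members separated all 4 groups in the probe set that stands for it. It was chosen on the gap between the HSC groups, so that separation was largely set by the choice. Outside the members, Ms4a3, Ccl9 and 0610040J01Rik also separated all 4 groups in the same order. So did other granulocyte-monocyte progenitor markers, namely Prtn3, Ctsg, Csf2rb and Hp. The separation is thus not particular to Atp8b4, and the share of all genes that show it was not computed. Atp8b4 ran from normal HSC at 4.40 ± 0.18 (SD, n = 2) through leukemic HSC at 5.96 ± 0.03 and normal KSL at 10.21 ± 0.03 to leukemic KSL at 10.63 ± 0.02. In its other probe set the 2 KSL groups, at 10.45 ± 0.16 and 10.41 ± 0.07, did not differ beyond their spread. For the Atp8a1 probe set that stands for the gene, neither the 2 KSL groups (8.86 ± 0.05 and 8.84 ± 0.05) nor the 2 HSC groups (9.96 ± 0.42 and 10.32 ± 0.45) differed beyond theirs. Other Atp8a1 probe sets did have leukemic arrays above the normal ones, 4 of 7 in KSL and 3 of 7 in HSC.

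The remaining genes of the family gave little. Of 12 other P4-ATPase and CDC50 genes, 10 were measured and 9 were off the floor on at least 1 array. Atp8b1 was at the floor on all 8 arrays, and Tmem30b was at it on 7. In the KSL comparison and in both HSC against KSL comparisons 0 of the 10 passed (limma; 0, 1 and 1 at an unadjusted p under 0.05), and their medians were 0.00, 0.00 and 0.01 beside 0.00, 0.00 and 0.01 over all genes. The largest differences in normal mice were 1.21 ± 0.21 for Atp10d (limma, adjusted p = 0.0822), whose human relative handles glucosylceramide, and -1.38 ± 0.74 for Atp10a (adjusted p = 0.466). Atp10d passed with arrays shifted to a common median (adjusted p = 0.043) and without genes at the floor (0.0433). A dim probe set of Atp10a, 1447273_x_at, singled out afterwards, passed in normal mice over all probe sets (limma, -0.33 ± 0.02, adjusted p = 0.0219). It was at the floor on 5 of 8 arrays, both normal HSC arrays among them, and normal KSL was at 3.65. Values held equal at the floor shrink its standard error, so this p does not measure a real spread. The other Atp10a probe sets read -1.38, -0.77 and -0.78 there and did not pass. The widest differences in KSL were 0.11 for Atp8a2 and -0.46 for Atp10a, and in leukemic mice 0.58 for Atp10d and -0.83 for Atp10a between HSC and KSL.

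The genes listed as scramblases also had 0 of 11 measured passing in each of these 3 comparisons (limma; 1, 1 and 0 at an unadjusted p under 0.05), with medians of -0.04, 0.12 and 0.10. The list is not limited to the plasma membrane. The widest values were 0.78 for Plscr1 and -0.37 for Plscr4 in KSL. Between HSC and KSL they were 1.54 for Plscr4 and -0.36 for Tmem41b in normal mice and 0.41 for Plscr1 and -0.47 for Atg9a in leukemic mice. These are values of the probe set that stands for a gene. A dimmer Plscr4 probe set, 1433626_at, singled out after its values were seen, was higher in HSC than in KSL by 2.42 ± 0.38 in leukemic mice and passed over all probe sets (adjusted p = 0.0464), and by 2.51 ± 0.38 in normal mice (adjusted p = 0.0765).

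Of 3 genes of phosphatidylserine metabolism, Pisd, which encodes the mitochondrial enzyme that turns phosphatidylserine into phosphatidylethanolamine, was lower in leukemic HSC than in leukemic KSL and passed (-0.80 ± 0.08, limma, adjusted p = 0.0186). It read 7.84 and 8.02 in leukemic HSC, 8.80 and 8.67 in leukemic KSL and 8.52 and 8.60 in normal HSC. The call was lost under 7 of 17 alternatives, among them the fit of the compared arrays alone (adjusted p = 0.094), a replicate block (0.0529) and each KSL array left out in turn (0.0546 to 0.125). The other 2, Ptdss1 and Ptdss2, did not pass in any of the 3 comparisons, and 0 of 3 passed, or had an unadjusted p under 0.05, in KSL (from -0.57 for Ptdss2 to -0.03 for Pisd) or between normal HSC and normal KSL (from -0.21 for Pisd to 1.07 for Ptdss2).

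Of 12 receptors and bridging proteins that bind exposed phosphatidylserine, 1 passed between HSC and KSL in normal and in leukemic mice (limma). Of all genes 1.8% and 5.86% were called there, and 3 and 4 of the 12 had an unadjusted p under 0.05. Cd300lb, an activating myeloid receptor, was lower in HSC, with a difference of -3.18 ± 0.40 in normal mice (limma, adjusted p = 0.0439) and of -2.48 ± 0.40 in leukemic mice (adjusted p = 0.0431). It read 3.51 and 4.16 in normal HSC, 4.56 and 3.55 in leukemic HSC, 6.98 and 7.04 in normal KSL and 6.42 and 6.66 in leukemic KSL. The call was lost under 11 of 17 alternatives in normal mice (adjusted p = 0.137 with the compared arrays alone, 0.108 with a replicate block) and under 12 of 17 in leukemic mice (0.133 and 0.0908), while the difference stayed between -3.50 and -2.85 and between -2.99 and -1.98 with 1 array left out. Its HSC arrays of leukemic and of normal mice overlapped. In KSL 0 of 12 passed (limma; 2 at an unadjusted p under 0.05) and 9 of 12 were lower in leukemic mice, with a median of -0.38 beside 0.00 over all genes, from 0.82 for Stab1 to -0.64 for Mfge8.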

How the data were processed

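The authors deposited 1 table of log2 values for 45101 probe sets on 8 arrays. The submitters' processing notes name RMA and no version of it. What followed RMA is not given in the sources used here. In the text that came with the series, the protocols name both a Nugen amplification and the standard Affymetrix labelling. Values stop at a floor of 3.32, the log2 of 10, where 14.9% to 15.8% of the probe sets of an array lie. Array medians lay between 5.74 and 5.86, so no further scaling was applied. Probe sets were named by the platform annotation supplied with the table (34945 with 1 symbol, 932 with several, 9160 with none, 64 controls), and of those with 1 symbol 34741 were matched by gene identifier to RefSeq of GRCm38.p6.

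The probe set with the highest mean stood for a gene, which gave 18193 genes. Limma 3.58.1 in R 4.3.3 was fitted across all genes to all 8 arrays with a mean for each group, which leaves 4 residual degrees of freedom, two-sided, with Benjamini-Hochberg adjustment over all genes, and adjusted p under 0.05 passed. The same fit over all 34945 probe sets gave the values of single probe sets, adjusted over all of them. Its variance is shared by all groups although HSC replicates varied more, so p-values that involve HSC may be too small. The number of arrays limits the precision. Differences, folds and promoter composition were computed with Python 3.11.15, pandas 2.3.3 and numpy 2.4.6, and figures with matplotlib 3.10.9.

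The members and gene lists were chosen with earlier results of these data known, and the motifs were chosen after the data were seen. Named genes are the 6 members with their probe sets, list genes that passed or had the widest difference in each direction, and the 5 genes most correlated with Atp8b4. Genes of the marker lists are named where they stand beside a result. The alternatives tried were a common median, array weights, a filter on genes at the floor, the mean of probe sets, all probe sets and the compared arrays alone. Further ones were a term for the male pattern, its arrays left out, a replicate block, and each array left out. Ly6a has no probe set of 1 symbol and was not analysed here. Replicate numbers did not pair the arrays: correlations of same-numbered deviations between groups ran from -0.035 to 0.087.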

Additional observations from a re-analysis of the deposited data

How the results depend on the processing

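The Atp8b4 difference kept its direction in all 4 comparisons under every alternative run. These alternatives used the probe set that stands for the gene, or averaged it with the second. The second probe set alone read -0.04 in KSL, with the arrays overlapping, so the KSL direction depends on the probe set. Atp8b4 was chosen on the gap between the HSC groups, so keeping that direction adds no support. In HSC of leukemic against normal mice the Atp8b4 difference was 1.56, and at least 1.67 as the mean of both probe sets. Without the arrays of male pattern it was 1.69, and with 1 array left out 1.43 to 1.69. Between HSC and KSL the mean of both probe sets gave -4.99 in leukemic mice and -6.47 or lower in normal mice. The values for these means that involve normal HSC are bounds, since the second probe set was at the floor there. In normal mice the difference was -5.92 without the arrays of male pattern and -5.94 to -5.68 with 1 array left out. In KSL it was 0.19 to 0.49 and did not pass under any alternative (limma, adjusted p = 0.0547 to 1).

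Small differences changed sign, and the cause was not tested. In KSL, Atp8a1 was 0.0129 with arrays shifted to a common median, 0.30 as the mean of its probe sets and -0.0477 to 0.0166 with 1 array left out. Also in KSL, Atp11b was 0.0073 without the arrays of male pattern and -0.125 to 0.034 with 1 array left out, Tmem30a was -0.0142 with a term for these arrays, Atp8a2 was -0.0702 with that term, -0.0745 without them and -0.0745 to 0.29 with 1 array left out, and Pisd was -0.0984 to 0.03. Between HSC and KSL of normal mice, Atp8b2 was 0.18 as the mean of its probe sets, 0.40 without the arrays of male pattern and -0.33 to 0.19 with 1 array left out, Atp11b was -0.0938 to 0.0118, and Tmem41b was 0.0416 as the mean of its probe sets. In leukemic mice Atp11a was -0.44 as the mean of its probe sets, and with 1 array left out Atp10a was -1.95 to 0.28 and Atg9a -0.956 to 0.0152.

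Of the members, 1 of 5, Atp8a1, passed between HSC and KSL of leukemic mice with the common median, without genes at the floor and with the mean of probe sets. Over all genes, calls in KSL went from 8 to 1 with the common median, 125 with array weights, 2 without genes at the floor and 0 with the compared arrays alone, with the male term, without the arrays of male pattern and with a replicate block, and to 0 to 6 with 1 array left out. Calls between HSC and KSL of normal mice went from 328 to 509 with the common median, 546 without genes at the floor, 0 with the compared arrays alone, 168 with the male term, 4 without those arrays, 19 with a replicate block and 20 to 463 with 1 array left out. In leukemic mice they went from 1067 to 640 with array weights, 94 with the compared arrays alone and without the arrays of male pattern, 652 with the male term, 401 with a replicate block and 0 to 1316 with 1 array left out. The replicate block changed no member's call. In the HSC comparison that chose Atp8b4, the 18 calls became 0 with a replicate block, the male term or the compared arrays alone, and ran from 0 to 257 with 1 array left out. At an unadjusted p under 0.05 the counts over all 8 arrays were 1446 in KSL and 2505 in HSC.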
